A study of Mus musculus with 6 samples.

Results

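The Hippo pathway is described here through 10 genes in mouse lung: the kinases Stk4, Stk3, Lats1 and Lats2, the scaffold Sav1, the coactivators Yap1 and Wwtr1 (which encodes TAZ), and the targets Ctgf, Cyr61 and Amotl2. They were taken by gene symbol from a table of 24054 gene rows, and all 10 were found and passed the filter on low values. The genes were chosen by their place in the pathway and by measured values, namely earlier results of the same comparison of these lungs, so their differences between the groups are given as a description without a test. RNA was sequenced from the lungs of 6 mice, all female SCID, 3 in each of 2 groups. SCID mice lack most T and B cells. All 6 mice had first received fluorescently labelled extracellular vesicles (EVs) in the tail vein, selected for the tetraspanins CD9, CD63 and CD81 and shed by cultured neural progenitors of E15.5 mouse embryos. The progenitors were wild type in the first group (WT EV) and lacked Tsc1 in the second (Tsc1-null EV). The Tsc1 protein works in a complex that holds back mTORC1, a kinase that drives cell growth. All mice were then given the same dose of rat ELT3 cells, a model of the lung disease lymphangioleiomyomatosis, intravenously 48 h after the EVs, and the lungs were taken 72 h after that. The deletion lay in the EV donor cells and not in the lungs, so lung Tsc1 (17.2 to 18.7 with Tsc1-null EV, 17.8 to 33.2 with WT EV) does not check the labels. The age of the mice is not given in the sources used here, no lungs free of EVs or of ELT3 cells were analysed here, and reads from rat cells cannot be told apart from mouse reads.

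In the Hippo pathway, the kinases STK4 and STK3 (also called MST1 and MST2), held by the scaffold SAV1, activate the kinases LATS1 and LATS2. Active LATS phosphorylates YAP and TAZ, which are then kept in the cytoplasm or degraded, and when the kinases are quiet YAP and TAZ enter the nucleus and drive transcription with the TEAD DNA-binding proteins. In lung the pathway is known for its part in alveolar type 1 cell identity, repair and fibrosis. Much of its control acts on phosphorylation and location of proteins, which RNA levels do not measure.

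TEAD proteins bind the motif CATTCC, and YAP and TAZ reach DNA through them, so the start regions of the 10 genes were searched for it on both strands. RefSeq promoter sequences (build GRCm38, mm10; 250 bases before to 50 after a start site) were given for 8 of the 10 genes, all but Stk3 and Ctgf. The motif, or GGAATG where it lies on the opposite strand, was found for 6 of these 8 genes. Of all 27025 genes with such a sequence 16.6% held it, and of all 32851 windows 14.7%, against 7 of the 10 windows of these genes. Cyr61, Amotl2 and Lats2 are known YAP/TAZ targets, so a higher share was partly built into the choice of genes. The 2 windows of Wwtr1 overlap and hold the same match, which is counted in both. The 5 genes with a match before the start site are shown with their surroundings, 5′ to 3′ on the strand of the gene, with the motif in capitals.
Cyr61, chr3:145650053-145650118, minus strand: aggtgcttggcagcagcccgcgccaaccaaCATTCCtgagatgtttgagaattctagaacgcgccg
Amotl2, chr9:102717709-102717774, plus strand: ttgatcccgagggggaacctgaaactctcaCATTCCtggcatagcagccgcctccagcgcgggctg
Sav1, chr12:69987073-69987138, minus strand: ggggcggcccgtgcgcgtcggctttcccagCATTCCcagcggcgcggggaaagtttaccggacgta
Wwtr1, chr3:57576011-57576076, minus strand: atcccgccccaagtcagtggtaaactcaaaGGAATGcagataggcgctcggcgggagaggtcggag
Yap1, chr9:8004702-8004767, minus strand: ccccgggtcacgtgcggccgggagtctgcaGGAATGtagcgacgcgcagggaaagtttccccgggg
The first base of the match lay 103 bases before the start site in Cyr61, 65 in Amotl2, 106 in Sav1, 136 or 170 in Wwtr1 (which has 2 annotated start sites) and 141 in Yap1. In Lats2 it lay just after the start site in 1 window, while another Lats2 window and the windows of Stk4 and Lats1 did not hold it. A match is a run of letters and not a measured binding site, and no binding was measured in these lungs.

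Values are TMM-normalized CPM, read counts made comparable between libraries by their totals and the trimmed mean of M values, and groups are given as mean ± SD over 3 mice. Changes are log2 differences of value + 1, Tsc1-null EV minus WT EV, ± SE from limma fitted to all 14159 genes with a mean of at least 1. The libraries held 5101413 to 9358820 reads assigned to genes, and each of the 10 genes had 212 to 3069 reads per library, which gives a counting error of 1.81% to 6.87%. At a threshold of 0.05 on the adjusted p, limma called 0 of the 14159 genes (0.0%) and 0 of the 10. The unadjusted p was under that threshold for 930 genes (6.57%), 2 of the 10 among them. EdgeR also called 0 genes. DESeq2 called 0.0327% of genes lower, with 1 of the 10 (Stk4), and 0.0572% higher, with 0 of the 10. Limma with sample weights called 3.3% lower, with 6 of the 10, and 4.12% higher, with 0 of the 10. These weights rested mostly on 1 library per group, 4.19 for replicate 3 of WT EV and 3.95 for replicate 2 of Tsc1-null EV, against 0.213 to 0.933 for the others. The libraries of WT EV replicate 2 and of Tsc1-null EV replicate 1 stood apart, with median correlations of 0.963 and 0.942 to the rest against 0.980 to 0.982 for the others. In these libraries Malat1, a nuclear long noncoding RNA, stood at 15673 and 30060 against 1609 to 2819 elsewhere. The ribosomal RNA precursor Rn45s stood at 10881 and 13776 in them against 3293 to 6120. They also held the fewest reads, 6565182 and 5101413, against 8079325 to 9358820. The differences of the 10 genes, and those of the other named genes where they moved by over 1.5 times, are therefore also given without both. In that fit, with 2 lungs a group, limma called 0.0918% of genes lower, with 1 of the 10 (Cyr61), and 0.0848% higher, with 0 of the 10. Since values of this comparison chose the 10 genes, none of these counts is a test of them. Each library was taken as 1 mouse, which the labels give only as separately numbered samples, so p-values measure the spread between these samples, which may be technical.

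Of the 10 genes, 8 had a log2 difference below 0, with a median over the 10 of -0.27 against -0.015 over all genes tested. Without both libraries that stood apart, 9 were below 0 and the median was -0.34, against -0.0024 over all genes. One of these libraries, WT EV replicate 2, was below the WT EV mean in 9 of the 10 genes. Leaving it out by itself lowers the differences of those genes. Stk4, Lats2 and Yap1 were lower in each Tsc1-null EV lung than in any WT EV lung, where 6.22% of all genes were. None was higher in all 3, where 6.86% of all genes were. The plot of values by lung shows the 3 genes without overlap beside the 7 with it.

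**Figure D1:**
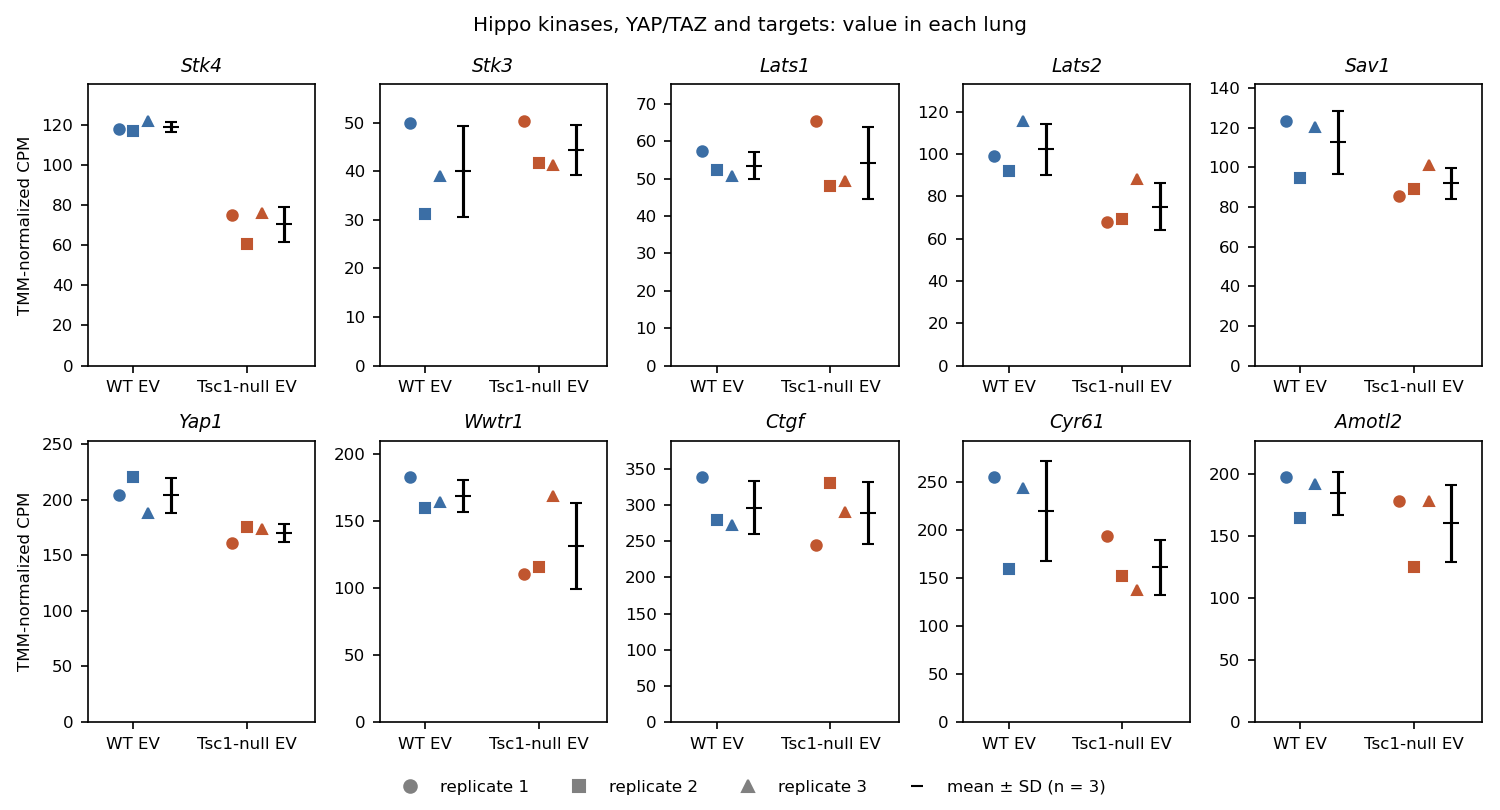
Value of each of the 10 genes in each lung (y axis, TMM-normalized CPM from 0; x axis, group; marker shape, replicate), with the mean ± SD of 3 lungs beside each group. The Stk4 points of the groups lie far apart (116.99 to 121.7 against 60.4 to 75.8), Lats2 and Yap1 are separated more narrowly, and the other genes overlap.

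Stk4, the kinase MST1 at the top of the cascade, had the largest difference of the 10. It stood at 117.7, 116.99 and 121.7 in WT EV replicates 1 to 3 and at 75.2, 60.4 and 75.8 in Tsc1-null EV replicates 1 to 3. All 3 WT EV lungs were nearly equal, all 3 Tsc1-null EV lungs were lower, and replicate 2 was the lowest of them. The means were 118.8 ± 2.51 and 70.4 ± 8.72 (n = 3 each), so the Tsc1-null EV mean was 59.3% of the WT EV mean (log2 difference -0.75 ± 0.15). The spread of the WT EV lungs was 2.12% of their mean, below the 3.32% that read counting alone gives. With Tsc1-null EV the spread was 12.4% against a counting error of 4.49%. The difference did not depend on the libraries that stood apart: it was -0.81 without both, and between -0.81 and -0.65 with any 1 lung left out. Stk4 shares 0 of its 50-base words with transcripts of other annotated genes. The gene Tomm34 overlaps it on the opposite strand and was named for that position. Tomm34 stood at 28.0 to 33.1 in WT EV and 26.6 to 31.1 in Tsc1-null EV lungs.

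Stk3, the kinase MST2, is the closest relative of Stk4 and can stand in for it in activating LATS kinases. It stood at 49.9, 31.2 and 39.0 with WT EV and at 50.3, 41.6 and 41.2 with Tsc1-null EV. The groups overlapped, and replicate 1 of each group was the highest. The means were 40.0 ± 9.41 and 44.4 ± 5.14 (log2 difference 0.17 ± 0.20). This difference was 0.0027 without WT EV replicate 2, 0.33 without WT EV replicate 1 and -0.09 without both libraries that stood apart. Per kilobase of exon, Stk4 exceeded Stk3 by 2.46, 3.92 and 3.26 times in the WT EV lungs and by 1.56, 1.51 and 1.92 times in the Tsc1-null EV lungs. The ratio was thus lower in all 3 Tsc1-null EV lungs, and Stk4 remained the higher of the pair in each of the 6.

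Lats2, one of the kinases that phosphorylate YAP and itself a known YAP/TAZ target, stood at 99.3, 91.9 and 115.6 with WT EV and at 68.2, 69.2 and 88.2 with Tsc1-null EV. Every Tsc1-null EV lung was below every WT EV lung, with replicate 3 closest to them. The means were 102.3 ± 12.1 and 75.2 ± 11.3, the Tsc1-null EV mean being 73.5% of the other (log2 difference -0.44 ± 0.16, and -0.45 without both libraries that stood apart). Lats1, its relative, stood at 57.4, 52.2 and 50.6 with WT EV and at 65.4, 48.0 and 49.3 with Tsc1-null EV. The highest and the lowest values were both in the Tsc1-null EV group, with means of 53.4 ± 3.59 and 54.2 ± 9.68 (log2 difference 0.0090 ± 0.16, and -0.15 without both libraries that stood apart). Of the 50-base words of Lats2, 41.2% also occur in Gm49361, an annotated gene that overlaps it on the same strand, so a share of its reads may have been assigned elsewhere. Per kilobase, Lats2 exceeded Lats1 by 1.81, 1.84 and 2.39 times in WT EV lungs and by 1.09, 1.51 and 1.87 times in Tsc1-null EV lungs, with overlap.

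Sav1, the scaffold that holds STK4 or STK3 to LATS, stood at 123.2, 94.4 and 120.3 with WT EV and at 85.6, 89.0 and 100.9 with Tsc1-null EV. WT EV replicate 2 lay within the range of the Tsc1-null EV group, and the other WT EV lungs lay above it. The means were 112.6 ± 15.9 and 91.8 ± 8.02 (log2 difference -0.29 ± 0.16, and -0.36 without both libraries that stood apart). Sav1 shares 24.7% of its 50-base words with transcripts of Atl1, a gene on the opposite strand. Atl1 stood at 1.32 to 2.22 in WT EV and 1.33 to 3.81 in Tsc1-null EV lungs, far below Sav1.

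Yap1, which encodes the coactivator YAP, stood at 204.1, 220.3 and 188.3 with WT EV and at 161.0, 175.4 and 173.8 with Tsc1-null EV. The groups did not overlap, with a gap from 175.4 to 188.3 between them. The means were 204.2 ± 16.0 and 170.1 ± 7.91, and the Tsc1-null EV mean was 83.3% of the WT EV mean (log2 difference -0.26 ± 0.14). Without both libraries that stood apart the difference was -0.17. Its paralog Wwtr1 stood at 182.5, 159.8 and 164.2 with WT EV and at 110.5, 115.3 and 168.2 with Tsc1-null EV. In Wwtr1, Tsc1-null EV replicates 1 and 2 were low and replicate 3 lay among the WT EV lungs, so the groups overlapped through that lung. The means were 168.8 ± 12.0 and 131.3 ± 32.1 (log2 difference -0.38 ± 0.19, -0.57 when Tsc1-null EV replicate 3 was left out, and -0.31 without both libraries that stood apart). The ratio of Wwtr1 to Yap1 per kilobase was 1.40 to 1.73 with WT EV and 1.27 to 1.88 with Tsc1-null EV.

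Among the targets, Ctgf and Cyr61 encode secreted matricellular proteins of the CCN family (now named Ccn2 and Ccn1) and are the most used readouts of YAP and TAZ activity. Ctgf stood at 338.6, 279.6 and 272.6 with WT EV and at 245.0, 330.9 and 291.0 with Tsc1-null EV. The groups overlapped over nearly their whole range, with means of 296.9 ± 36.3 and 288.96 ± 43.0 (log2 difference -0.04 ± 0.17). The sign depended on single lungs: leaving out Tsc1-null EV replicate 1 gave 0.07, leaving out replicate 2 of the same group gave -0.15, and it was 0.03 without both libraries that stood apart. Of its 50-base words, 17.2% occur in Gm15270, a noncoding transcript on the opposite strand, and the use of strand in counting is not given in the sources used here.

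Cyr61 stood at 255.2, 159.8 and 244.5 with WT EV and at 193.7, 152.5 and 137.6 with Tsc1-null EV. WT EV replicates 1 and 3 were the highest lungs, and WT EV replicate 2 lay inside the Tsc1-null EV range. The means were 219.8 ± 52.3 and 161.3 ± 29.0 (log2 difference -0.43 ± 0.22). The difference was -0.64 without WT EV replicate 2 and -0.78 without both libraries that stood apart.

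Amotl2, a target that encodes an angiomotin-family protein which binds YAP and holds it back, stood at 197.1, 164.3 and 191.5 with WT EV and at 178.0, 124.5 and 178.2 with Tsc1-null EV. Tsc1-null EV replicate 2 was the lowest lung, and the other Tsc1-null EV lungs lay inside the WT EV range. The means were 184.3 ± 17.5 and 160.2 ± 30.9 (log2 difference -0.22 ± 0.18). Without Tsc1-null EV replicate 2 the difference was -0.04, and without both libraries that stood apart it was -0.38.

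The lungs differed in how far each gene deviated. Stk4, Lats2, Sav1, Yap1, Wwtr1, Cyr61 and Amotl2 were below the WT EV mean in every Tsc1-null EV lung. Wwtr1 was so by almost nothing in replicate 3 (-0.0025). Against the mean of the WT EV lungs, 8, 8 and 9 of the 10 genes were below 0 in Tsc1-null EV replicates 1, 2 and 3, and so were 9 of 10 in WT EV replicate 2, against 2 and 5 in WT EV replicates 1 and 3. The median deviation was -0.30, -0.41 and -0.13 in the Tsc1-null EV lungs and 0.11, -0.11 and 0.01 in the WT EV lungs. Stk4 was the lowest gene of all 10 in Tsc1-null EV replicates 1 and 2, at -0.65 and -0.96. In replicate 3 Stk4 and Cyr61 were equally low at -0.64, while Wwtr1 was at the WT EV mean. The 3 targets differed from each other within the Tsc1-null EV group. In replicate 2, Amotl2 was at -0.56 and Cyr61 at -0.49 while Ctgf was at 0.16. In replicate 3, Cyr61 was at -0.64 while Amotl2 was at -0.04.

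**Figure D2:**
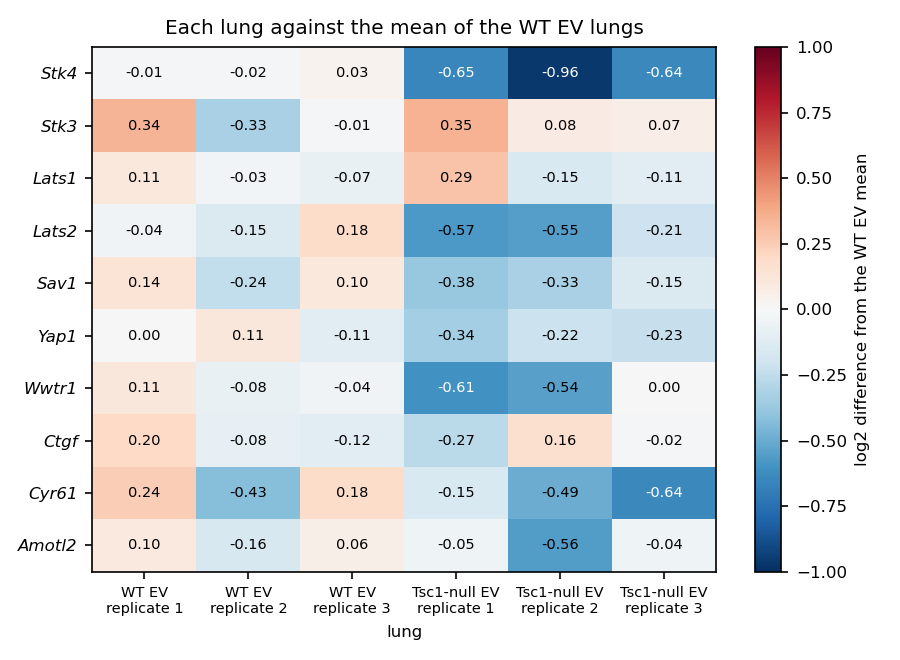
Log2 difference of each gene (rows) in each lung (columns) from the mean of the 3 WT EV lungs, on log2 of value + 1, with blue for lower and red for higher. The Stk4 row is near 0 in the WT EV lungs and between -0.96 and -0.64 in the Tsc1-null EV lungs, and the target rows differ between the Tsc1-null EV lungs.

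**Figure D3:**
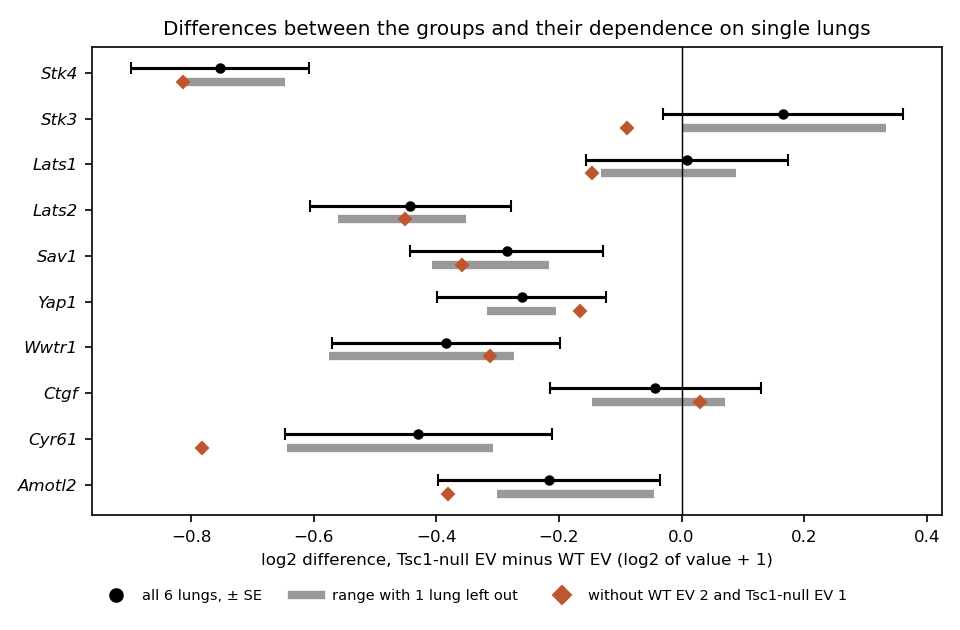
Log2 difference between the groups for each gene (x axis; black point, all 6 lungs ± SE), its range when 1 lung is left out (grey bar) and its value without both libraries that stood apart (orange diamond). Stk4 stays between -0.81 and -0.65 with 1 lung left out, while the bars of Lats1 and Ctgf cross 0 and that of Amotl2 reaches -0.04.

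Levels can be compared between genes only per length, here as TMM-normalized CPM per kilobase of all annotated exons of a gene. Which transcripts the lungs used was not measured, so the order of close genes rests on these annotated lengths. Ctgf (102.4 ± 12.5, SD over 6 lungs) and Cyr61 (94.4 ± 24.6) were the most abundant and could not be ordered, Ctgf being higher in 3 of 6 lungs. Both lay above Wwtr1 (31.4 ± 6.25) in every lung, the next in order. Wwtr1 was above Amotl2 (27.4 ± 4.14) in 5 of 6 lungs, within their spread, and Amotl2 was above Yap1 (20.2 ± 2.36) in all 6. Yap1 and Sav1 (19.4 ± 3.04) could not be ordered, with Yap1 higher in 3 of 6. Stk4 followed at 16.1 ± 4.62 and Lats2 at 12.7 ± 2.60, Stk4 being the higher in 6 of 6. Lats1 (7.37 ± 0.897) and Stk3 (6.90 ± 1.18) were the lowest and overlapped. Stk4 moved in this order with the group: at 20.3 ± 0.429 per kilobase in WT EV lungs it was level with Sav1 (21.4 ± 3.02), and at 12.0 ± 1.49 in Tsc1-null EV lungs it was near Lats2 (10.8 ± 1.61).

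**Figure D4:**
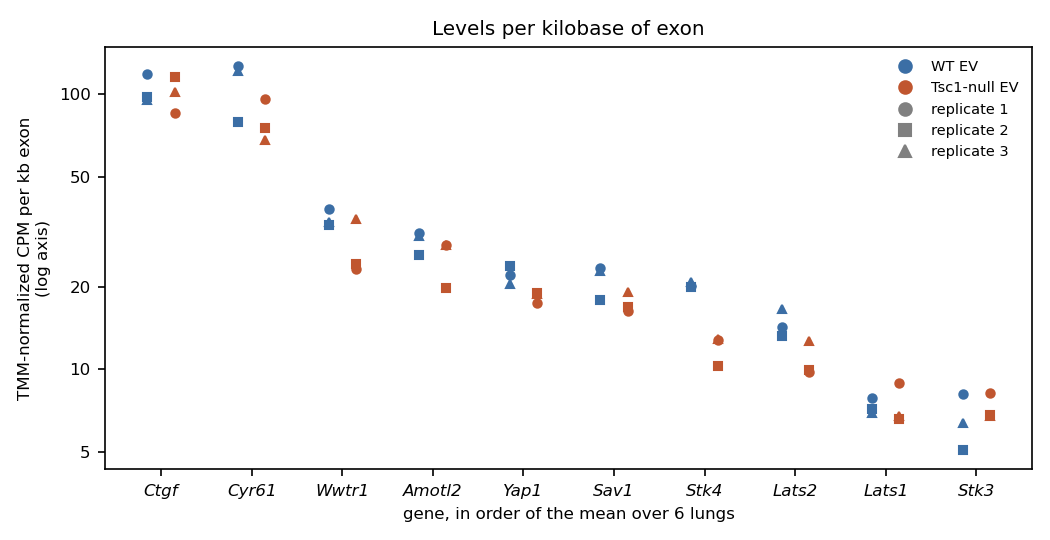
Level of each gene per kilobase of annotated exon in each lung (y axis, TMM-normalized CPM per kilobase, log axis; x axis, genes in order of their mean; blue, WT EV; orange, Tsc1-null EV; marker shape, replicate). Ctgf and Cyr61 lie highest and Lats1 and Stk3 lowest, and Stk4 lies near 20.3 with WT EV and near 12.0 with Tsc1-null EV.

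The other genes of the pathway were taken from a list of 68 regulators in 5 roles, of which 66 passed the filter. Limma called 0 of the 66 in either direction, with 4 at an unadjusted p under 0.05 (1 higher, 3 lower) beside 6.57% of all genes, and edgeR and DESeq2 called 0 as well. The median log2 difference was -0.07, with 39 of 66 below 0, against -0.015 and 52.7% for all genes tested. Of the 66, 6 were lower in all 3 Tsc1-null EV lungs and 3 were higher in all 3, beside 6.22% and 6.86% of all genes. Without both libraries that stood apart the median was 0.0031.

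Of 14 other kinases and MOB cofactors, 10 were below 0. Map4k2, a MAP4K kinase (a family that can activate LATS in place of STK4 and STK3), was lower in all 3, at 62.7, 105.1 and 71.1 with WT EV and 44.5, 52.7 and 54.7 with Tsc1-null EV. WT EV replicate 2, which stood apart, was its highest lung (log2 difference -0.61 ± 0.21, and -0.31 without both libraries that stood apart). Mob1a, the cofactor that LATS needs for activity, stood at 12.2, 16.9 and 10.6 and at 11.2, 18.1 and 20.3, with overlap (log2 difference 0.29 ± 0.26, and 0.71 without both). Of 19 scaffolds and upstream regulators, 12 were below 0. Wtip, a LIM protein of the Ajuba family that inhibits LATS, was lower in all 3, at 38.1 ± 3.50 and 26.4 ± 5.65 (log2 difference -0.53 ± 0.19, and -0.31 without both). The RASSF proteins bind STK4 and STK3 through a shared domain, and 2 of them were without overlap in opposite directions. Rassf1 stood at 65.1, 67.9 and 73.0 with WT EV and 47.9, 62.3 and 59.9 with Tsc1-null EV (log2 difference -0.28 ± 0.15, and -0.17 without both). Rassf2 stood at 44.0, 45.1 and 44.8 and at 54.1, 62.4 and 61.3, with the WT EV lungs close to each other. Nf2, which encodes the tumour suppressor merlin that brings LATS to the membrane, overlapped at 100.7 ± 15.6 and 95.6 ± 23.3, and its log2 difference of -0.09 ± 0.20 was 0.17 without both.

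Of 16 genes of the STRIPAK complex, a phosphatase assembly that switches off STK4 and STK3, 9 were below 0 with a median of -0.03. Strn4, a striatin subunit, was lower in all 3 (75.2 ± 3.67 and 64.3 ± 2.60, log2 difference -0.22 ± 0.13) and Stk24, a kinase of the complex, was higher in all 3 by little (39.0 ± 3.27 and 42.3 ± 1.08, log2 difference 0.12 ± 0.14, and 0.06 without both). Of the 6 tested TEAD and VGLL genes 4 were below 0. Vgll3, a cofactor that competes with YAP for TEAD, was lower in all 3, at 24.3, 26.6 and 19.0 with WT EV and 9.22, 16.6 and 18.3 with Tsc1-null EV, where replicate 1 was by far the lowest (log2 difference -0.67 ± 0.26, and -0.29 without both). Tead1 overlapped at 137.5 ± 3.05 and 124.7 ± 31.9, with Tsc1-null EV replicate 2 lowest and replicate 3 highest of the 6 lungs. Vgll4, a repressor of TEAD, also overlapped, at 7.51 ± 0.506 and 10.8 ± 3.63 (log2 difference 0.42 ± 0.25, and 0.70 without both). Of the 11 genes for 14-3-3 proteins, casein kinases and ubiquitin ligase subunits, which retain or degrade phosphorylated YAP and TAZ, 7 were above 0 with a median of 0.12. The casein kinase genes Csnk1e and Csnk1d were without overlap in opposite directions, at 175.97 ± 5.43 and 142.5 ± 14.6 and at 140.9 ± 6.44 and 156.3 ± 1.82.

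The targets were extended to the 18 genes of a published 22-gene signature of YAP and TAZ activity that are not among the 10. Limma called 0 of the 18, with 2 at an unadjusted p under 0.05, both lower, beside 6.57% of all genes, and edgeR and DESeq2 called 0. Of the 18, 10 were below 0, with a median of -0.10, against -0.015 over all genes. Leaving out Tsc1-null EV replicate 1 gave a median of 0.10, and it was 0.05 without both libraries that stood apart, so its sign turned on 1 lung. Tgfb2, a ligand of the TGF-beta family, was higher in all 3, at 39.9, 32.8 and 38.0 with WT EV and 46.5, 42.5 and 40.4 with Tsc1-null EV (log2 difference 0.22 ± 0.15, and 0.09 without both libraries that stood apart). It was 1 of 18 higher in all 3, beside 6.86% of all genes, and 0 of 18 were lower in all 3, beside 6.22%. Ankrd1, a nuclear ankyrin protein of muscle and a classic YAP target, stood at 143.9, 79.4 and 111.4 with WT EV and at 47.5, 83.9 and 79.3 with Tsc1-null EV. The Ankrd1 groups overlapped through replicate 2 of each (log2 difference -0.66 ± 0.27). Ankrd1 is also abundant in heart muscle, and the summed level of 6 cardiac muscle markers was 299.4 to 563.2 in WT EV and 87.0 to 360.2 in Tsc1-null EV lungs, with 6 of 6 below 0. The part of heart muscle RNA in the Ankrd1 values was not tested.

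**Figure D5:**
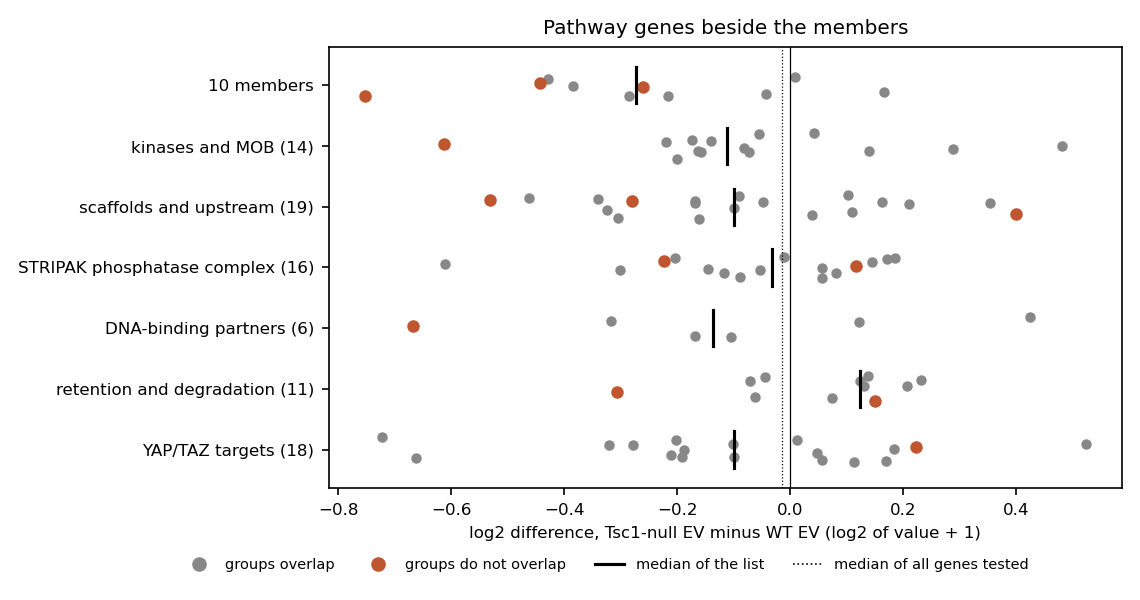
Log2 difference between the groups for each of the 10 genes, of 66 regulators in 5 roles and of 18 further targets (x axis; rows are lists; 1 point a gene, spread vertically for legibility; orange, groups that do not overlap; black bar, median of the list; dotted line, median of all genes tested at -0.015). The median of the 10 chosen genes is -0.27, while the medians of the other lists lie between -0.14 and 0.12.

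In bulk tissue, fewer cells of a type and less RNA per cell cannot be told apart, so markers of the cell types that lung samples hold are given beside these values. Endothelial markers were below 0 in 10 of 10, with summed levels of 2920 to 3828 in WT EV and 1911 to 3590 in Tsc1-null EV lungs. Alveolar type 1 markers were below 0 in 5 of 7, with sums of 3955 to 6731 and 3696 to 5921. Mesothelial markers were below 0 in 7 of 8, with sums of 637.8 to 1219 and 236.8 to 701.5. The 1219 and the 236.8 came from the libraries that stood apart. The other mesothelial sums were 683.9 and 637.8 with WT EV and 552.5 and 701.5 with Tsc1-null EV, with overlap. Krt19, the mesothelial marker above 0, made up 181.4 of the 236.8. In the same lungs without the libraries that stood apart, endothelial sums were 3649 and 3828 with WT EV and 2832 and 3590 with Tsc1-null EV. Smooth muscle and pericyte markers were below 0 in 7 of 7, with sums of 1543 to 1974 and 1239 to 1965. Within the Tsc1-null EV group the endothelial, alveolar type 1, mesothelial and natural killer sums were all lowest in replicate 1 and highest in replicate 3. The smooth muscle and pericyte sum and the sums of the other cell types were highest in replicate 2. Wwtr1, Lats2 and Sav1 had the order of the endothelial sums, Cyr61 and Stk3 had the reverse order, and the other 5 genes had neither. Lats2 differed little between replicates 1 and 2 (68.2 and 69.2), by less than its counting error. Orders of 3 lungs in 1 group can match by chance. The part of these cell types in the differences of the 10 genes was not tested. Fibroblast markers were below 0 in 4 of 8 (3992 to 4744 and 2212 to 6087), alveolar type 2 markers in 1 of 8 (24094 to 31768 and 21428 to 42765) and myeloid markers in 1 of 8 (2246 to 3014 and 1649 to 4475). The fibroblast markers above 0 were the collagen genes Col1a1, Col1a2 and Col3a1 and Lum, and Pdgfra, Tcf21, Dcn and Inmt were below. Inmt made up most of the fibroblast sums in WT EV lungs, at 2498 to 2730, and stood at 934.0 to 2659 in Tsc1-null EV lungs. Sftpc, the surfactant gene that defines alveolar type 2 cells, stood at 13094 to 29628 and made up most of the alveolar type 2 sums. Lyz2 made up most of the myeloid sums, at 2080 to 2819 in WT EV and 1510 to 4241 in Tsc1-null EV lungs. Stk4 is also a kinase of lymphocytes. The 8 T and B cell markers summed to 7.28 to 8.23 in WT EV and 6.96 to 8.30 in Tsc1-null EV lungs. Cd4, which macrophages can also express, was the highest of them. The 7 natural killer markers summed to 48.4 to 92.7 and 34.3 to 62.5, with 6 of 7 below 0, and their part in the Stk4 values was not tested.

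The genes whose profile over the 6 lungs was closest to that of Stk4 were found by the root mean square difference between centred log2 profiles, among 11696 other genes with a mean of at least 5. They were Hs3st1 (0.11), a heparan sulfate sulfotransferase gene, 4933409K07Rik (0.11), Scel (0.12), which encodes sciellin, Sh3d21 (0.13) and Rora (0.14), a nuclear receptor gene of the circadian clock. Hs3st1 stood at 37.4, 32.3 and 33.4 with WT EV and at 21.7, 19.8 and 20.8 with Tsc1-null EV. Rora stood at 105.1, 103.5 and 103.0 and at 76.4, 66.9 and 77.8, with the same lung lowest as for Stk4. Of the other 9 pathway genes, Lats2 was closest to Stk4, at rank 74 (0.21), followed by Wwtr1 at rank 293 (0.26) and Sav1 at rank 473 (0.28), while Stk3 was farthest at rank 8205 (0.51). The profile of Stk4 was mostly its difference between the groups, so closeness to it largely repeats the group difference of each gene. Such differences helped to choose the pathway genes, so these ranks are no separate result about them.

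All 10 genes are annotated as protein coding (GENCODE M21, build mm10), and each value sums all transcripts of a gene. Stk4 (ENSMUSG00000018209.15) lies at chr2:164070322-164155524 on the plus strand and Stk3 (ENSMUSG00000022329.15) at chr15:34875496-35178921 on the minus strand. Lats1 lies at chr10:7681214-7716460 (plus) and Lats2 at chr14:57689662-57758388 (minus), and Sav1 at chr12:69965012-69987002 (minus). The coactivator genes are at chr9:7931999-8004596 (Yap1, minus) and chr3:57455649-57575910 (Wwtr1, minus). The target genes are at chr10:24595442-24598683 (Ctgf, plus), chr3:145646976-145649981 (Cyr61, minus) and chr9:102716672-102733418 (Amotl2, plus).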

How the data were processed

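Reads of the 6 lungs were paired-end, per the labels' protocols. In 1 table the authors deposited values of TMM-normalized signal, taken as CPM on a linear scale, with a column per library. The submitters' processing notes name Bowtie2 2.1.0, RSEM 1.2.15, edgeR and mm10 but not what each was used for. The sources used here do not give the annotation or the use of strand. In each column all values were whole multiples of 1 step (100% within 0.001), so whole reads were recovered. Groups follow the treatment label, and replicates are numbered in accession order. Genes with a mean of at least 1 were kept (14159), log2(value + 1) was taken, which understates changes of low genes, and limma 3.58.1 in R 4.3.3 was run with an intensity trend (two-sided, Benjamini-Hochberg over all genes, threshold 0.05). In simulated reads with 200 changed genes the fit, on 14037 genes, recovered 35% of those changed by a log2 of 1 and 89% by 2, with 8 false calls. Simulated reads were drawn independently for each gene and lung, so no simulated library stood apart as a whole. The shares recovered in the real lungs may therefore differ. The 10 genes and all lists were chosen with earlier results of these data known. Of other pathway genes, up to 3 per role are named, those with the smallest unadjusted p among genes without overlap and a mean of at least 5, and also Tead1, Nf2, Mob1a, Vgll4 and Ankrd1. Stk26 and Adgre1 were matched by older symbols. Alternatives were a pseudocount of 0.1, a mean of at least 5 or no filter, scaling to a common median, quantile normalization, sample weights, edgeR 4.0.16 and DESeq2 1.42.0 with the recovered counts, each lung left out, and both libraries that stood apart left out. Shared sequence was counted as 50-base words of GENCODE M21 transcripts. Chi-square per degree of freedom between lungs of a group was 9.21 to 58.6, so none were duplicates.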

Additional observations from a re-analysis of the deposited data

How the results depend on the processing

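Of 150 log2 differences of the 10 genes under 15 alternatives, 144 stayed within 1 SD (pooled within groups) of the main value. The other 6 were Stk4 (-0.92), Yap1 (-0.14), Ctgf (0.18) and Amotl2 (-0.51) with sample weights, and Yap1 (-0.17) and Cyr61 (-0.78) without both libraries that stood apart. Many of the 144 could not have moved. A change of filter leaves the difference of a gene as it is, and leaving out 1 of 3 lungs cannot shift it by 1 such SD. The count of 144 is therefore no measure of stability. Under sample weights, which ran from 0.213 to 4.19, 583 genes were called higher and 467 lower by limma, and 6 of the 10 genes lower (Stk4, Lats2, Sav1, Wwtr1, Cyr61 and Amotl2), where 3.3% of all genes were. With these weights 6 of 66 regulators (3 higher, 3 lower) and 2 of 18 further targets (both lower) were called, beside 4.12% higher and 3.3% lower of all genes, and the median of the regulators was -0.020. DESeq2 called 7 genes higher and 4 lower (0.0572% and 0.0327% of the 12228 with an adjusted p), Stk4 among the lower. With the libraries that stood apart (WT EV replicate 2, Tsc1-null EV replicate 1) both left out, 12 genes were called higher and 13 lower, and the medians were 0.0031 for the regulators and 0.05 for the further targets. With 1 lung left out, 0 to 1 genes were called higher and 0 to 1 lower, the median of the regulators was -0.075 to -0.0060 and that of the further targets -0.18 to 0.10. The sign held under all 15 alternatives for Stk4, Lats2, Sav1, Yap1, Wwtr1, Cyr61 and Amotl2, and under 14 for Stk3, 11 for Ctgf and 10 for Lats1. Many of these signs could not have turned either. A change of filter leaves a sign as it is. For Stk4, Lats2 and Yap1, whose groups did not overlap, leaving out lungs cannot turn it. The counts of held signs are therefore no measure of stability. The cause of the changes between settings was not tested. No paired analysis was possible because the groups share no replicate numbers in the labels. Depth limits Stk3 and Lats1 most, at 212 to 409 and 326 to 471 reads per library.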
